A study of Mus musculus with 3 samples.

Results

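The 10 genes described here encode the deadenylase side of the CCR4‐NOT complex and the BTG/TOB proteins that bind it: Cnot1, Cnot6, Cnot6l, Cnot7, Cnot8, Btg1, Btg2, Btg3, Tob1 and Tob2. They were chosen by name from the 21938 protein‐coding genes of GENCODE mouse M21, of which 21671 have an annotated 3′UTR. The data are HITS‐clip peaks of Argonaute 2 (Ago2) from the mouse neuroblastoma line N2A. HITS‐clip fixes Ago2 to bound RNA with ultraviolet light, pulls it down with an antibody, and sequences the RNA that came with it. All 3 samples were untreated, kept under basal conditions, crosslinked at 400 and then 2 times at 200 mJ/cm2, and immunoprecipitated with the same anti‐Ago2 antibody. They form 1 group, so no treatment was compared, and nothing in the labels says whether the replicates came from separate cultures. The SDs below measure the spread between these samples, which may be technical.

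CCR4‐NOT is the main cytoplasmic deadenylase of animal cells. Cnot1 is the scaffold on which the other subunits sit, Cnot6 and Cnot6l are the CCR4‐type nucleases that shorten poly(A) tails, and Cnot7 and Cnot8 are the CAF1‐type nucleases. The anti‐proliferative proteins Btg1, Btg2, Tob1 and Tob2 contact the CAF1 subunits through their BTG domain, and Tob proteins also bind the poly(A)‐binding protein. Ago2 loaded with a microRNA (miRNA) recruits TNRC6 proteins, which bring CCR4‐NOT to the target, so these genes encode machinery that miRNA‐mediated repression itself uses. A peak in their transcripts shows where Ago2 was crosslinked and not how much of the protein was made.

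The sites that the results turn on are shown first, since a peak is only an interval and the sequence under it shows which miRNA could pair there. The mature miRNAs below are RefSeq sequences on GRCm38.p6, printed 5′ to 3′ with the seed (bases 2 to 8) in capitals. miR-15a-5p and miR-322-5p share a seed, as do miR-26a-5p and miR-26b-5p and also miR-181a-5p and miR-181c-5p.
miR-21a-5p: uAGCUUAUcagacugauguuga
miR-15a-5p: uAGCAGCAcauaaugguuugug
miR-322-5p: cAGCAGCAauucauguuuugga
miR-26a-5p: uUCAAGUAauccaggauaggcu
miR-26b-5p: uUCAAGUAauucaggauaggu
miR-181a-5p: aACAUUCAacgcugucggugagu
miR-181c-5p: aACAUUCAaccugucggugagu
miR-9-3p: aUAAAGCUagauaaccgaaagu
miR-141-3p: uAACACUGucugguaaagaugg
miR-19a-3p: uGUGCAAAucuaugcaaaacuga

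A selection of their matches in the 3′UTRs, those the results turn on, is given as the transcript strand reads, with 11 bases on either side and the match to seed bases 2 to 8 in capitals. An A directly after the capitals makes the match an 8mer. Except where stated, each lies in a region covered by peaks of all 3 libraries.
Cnot6, miR-21a-5p, chr11:49674417-49674423, minus strand: taccaggacagATAAGCTgatctgtaggc
Cnot6l, miR-21a-5p, chr5:96074207-96074213, minus strand, peaks in replicates 1 and 3: agaataagttaATAAGCTttatgcctttg
Cnot6l, miR-21a-5p, chr5:96072170-96072176, minus strand, peaks in replicates 2 and 3: tatttagtaagATAAGCTaattttcaaag
Btg1, miR-21a-5p, chr10:96622271-96622277, plus strand, no peak: tggtgctttcgATAAGCTtctcggagttt
Btg2, miR-15a-5p, chr1:134076624-134076630, minus strand: gctttgctctgTGCTGCTttgtatgggtg
Btg2, miR-15a-5p, chr1:134076490-134076496, minus strand: gacagtctgaaTGCTGCTaccactattcc
Tob2, miR-15a-5p, chr15:81850405-81850411, minus strand: cagatgtgaatTGCTGCTccccactccct
Cnot6l, miR-26a-5p, chr5:96071012-96071018, minus strand: ctctccgtgaaTACTTGAtcatttctatt
Cnot7, miR-26a-5p, chr8:40493722-40493728, minus strand: taaactttgccTACTTGAgcttggttttg
Cnot6l, miR-181a-5p, chr5:96073491-96073497, minus strand: agcatcctgtgTGAATGTactttaaaagc
Cnot6, miR-9-3p, chr11:49672290-49672296, minus strand: ttgttgattgcAGCTTTAataatcccaga
Btg2, miR-9-3p, chr1:134075383-134075389, minus strand: gaagactgtacAGCTTTAtggacaaatgt
Cnot6, miR-141-3p, chr11:49672520-49672526, minus strand: taatgtaatttCAGTGTTcttgctgataa
Btg2, miR-141-3p, chr1:134077094-134077100, minus strand: catctgtgagcCAGTGTTtgcctagggga
Cnot6, miR-19a-3p, chr11:49674878-49674884, minus strand: gcagtgtgctgTTTGCACagaaatccaca

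The deposited table held 711377, 498071 and 829936 peaks in replicates 1, 2 and 3, with median widths of 83, 84 and 85 nt. The table gives intervals without read counts, so the depth behind each peak is unknown. A peak was placed in a feature by its midpoint, and replicate 1 put fewer of its peaks in 3′UTRs. Over all genes it had 0.559 peaks per kb of 3′UTR, against 1.78 in replicate 2 and 1.77 in replicate 3. Of 12 neuronal and neuroblastoma markers, 7 had a 3′UTR peak in every library, among them Hand2 and Ncam1, 4 had a region shared by the libraries, and Nefl had no 3′UTR peak. Of 19 markers of other cell types, 3 had such peaks, among them Ptprc and Mbp, none had a shared region, and 10 had no 3′UTR peak.

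Ago2 peaks on the transcript strand were found in all 10 genes, 236, 427 and 907 in replicates 1, 2 and 3. The opposite strand of the same genes, which serves as the background, held 49, 27 and 46. The same‐strand count was thus 4.82, 15.8 and 19.7 times the opposite‐strand count (mean 13.4 ± 7.73, SD, n = 3). Over all protein‐coding genes that ratio was 1.83, 2.82 and 3.73 (2.79 ± 0.948), lower in each library than in the 10 genes. The lowest ratio of the 10 genes, in replicate 1, lay above the highest over all genes.

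Per length, peaks of the 10 genes were about as dense in coding sequence as in 3′UTR. Their joined 3′UTRs, 26119 nt, held 1.95, 6.01 and 5.59 peaks per kb in replicates 1, 2 and 3 (4.52 ± 2.23). Their coding sequence held 1.24, 6.53 and 6.66 per kb (4.81 ± 3.09), and introns 0.549, 0.526 and 2.28 per kb (1.12 ± 1.01). On the opposite strand the 3′UTRs had 0.102 ± 0.117 and the coding sequences 0.0622 ± 0.0622 per kb. Transcript levels in these cells were not analysed here, so Ago2 density and transcript abundance cannot be told apart.

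A 3′UTR peak was present in every library for 9 of the 10 genes, all except Btg3, where 21.7% of all genes had one. A stretch of 8 nt or more under peaks of every library, called a shared region below, was present in 7 of the 10 3′UTRs, where 13.9% of all genes had one. Cnot1, Cnot6, Cnot6l, Cnot7, Btg2, Tob1 and Tob2 had shared regions, and Cnot8, Btg1 and Btg3 had none. On the opposite strand 0 of the 10 3′UTRs had a peak in every library or a shared region, where 2.08% and 0.715% of all genes did. Together the 7 genes held 43 shared regions of 3472 nt, from 13 to 176 nt long with a median of 84 nt. There were 66 without replicate 1 and 22 with peaks of 86 to 200 nt.

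The 3′UTRs of the 10 genes are long, and long 3′UTRs more often had a shared region. Their median length was 2331 nt against 921 nt over all genes. When all genes were divided into 5 classes of 3′UTR length, from the shortest to the longest, 1.52%, 5.77%, 12.4%, 19.5% and 30.2% of genes had a shared region. Of the 5 members in the longest class, Cnot6, Cnot6l and Tob2 had one and Btg1 and Btg3 did not. In the next class Cnot7 and Btg2 had one, and in the middle class Cnot1 and Tob1 had one and Cnot8 did not.

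**Figure D1:**
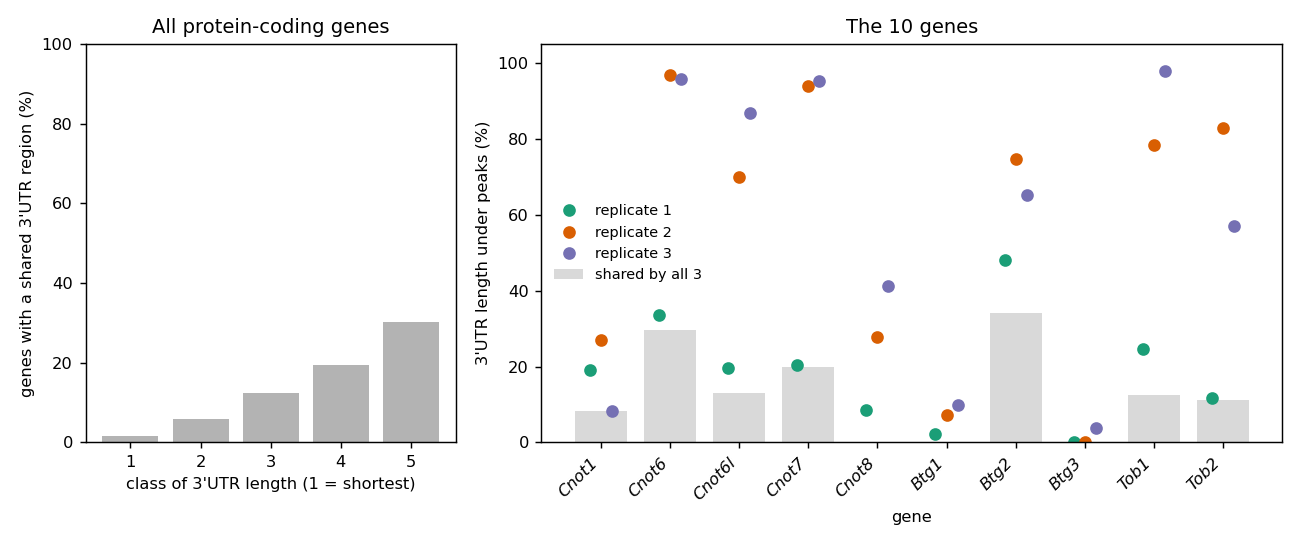
Left, the percentage of all protein‐coding genes with a shared 3′UTR region (y axis) in 5 classes of 3′UTR length (x axis), rising from 1.52% to 30.2%. Right, the percentage of each gene's 3′UTR under peaks of each replicate (points) and of all 3 (bars). Replicates 2 and 3 each covered over 90% of the Cnot6 and Cnot7 3′UTRs, while Btg1 and Btg3 stayed below 10% in every replicate.

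Cnot1, the scaffold, had 1 shared region in its 3′UTR of 959 nt and 13 in its coding sequence of 7128 nt. Its 3′UTR (chr8:95719451-95720409, minus strand, 959 nt) held 2, 3 and 1 peaks in replicates 1, 2 and 3, or 2.09, 3.13 and 1.04 per kb. The only shared region, 80 nt at chr8:95719944-95720023, began 387 nt after the stop codon. That region was lost when only peaks of 86 to 200 nt were used, a width class in which the same‐strand ratio of the 10 genes rose from 13.4 to 45.02.

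The CCR4‐type nuclease genes had the largest numbers of 3′UTR peaks of the 10. Cnot6 (3′UTR chr11:49671503-49675195, minus strand, 3693 nt) held 14, 35 and 34 peaks, and Cnot6l (chr5:96070333-96077182, minus strand, 6850 nt) held 14, 53 and 50. Cnot6 had 15 shared regions from the stop codon to 3257 nt after it, which covered 29.5% of the 3′UTR. Cnot6l had 11, from 298 to 6257 nt after the stop, covering 12.96%. Over all genes, 4.56% had 3 or more shared 3′UTR regions, as did 5 of the 10 genes, and 0.757% had 8 or more, as did Cnot6, Cnot6l and Btg2. These numbers rest on replicate 1, without which Cnot6 had 9 regions and Cnot6l 29, so that their order by count turned. The length under both other replicates was then 3423 nt in Cnot6 (92.7% of the 3′UTR) and 4261 nt in Cnot6l (62.2%). Cnot6 thus kept the larger share of its 3′UTR, in fewer regions. With peaks of 86 to 200 nt Cnot6 had 8 regions and Cnot6l 3.

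Per kb, Cnot6 was the denser of the pair in each library. It had 3.79, 9.48 and 9.21 peaks per kb in replicates 1, 2 and 3, and Cnot6l had 2.04, 7.74 and 7.30. The difference was 1.80 ± 0.0946 per kb (SD, n = 3), but this small spread holds only for peaks per kb. As multiples of the library's mean 3′UTR density, Cnot6 had 6.78, 5.33 and 5.20 and Cnot6l 3.66, 4.35 and 4.13. On that scale Cnot6 was again the higher in each library, with a much wider gap in replicate 1 than in the others. Among 3′UTRs of the longest class, mean density put Cnot6 at percentile 99.6 and Cnot6l at percentile 95.7.

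Replicates 2 and 3 blanketed these 3′UTRs, and this sets what a shared region can mean. Together they covered 92.7% of the Cnot6 3′UTR, so the position of its shared regions largely follows the peaks of replicate 1, of whose covered length 87.8% was also covered by both others. In Cnot6l the corresponding values were 62.2% of the 3′UTR and 66.1% of the replicate 1 length. In both genes the replicate 1 peaks therefore fell under peaks of the others about as often as any stretch of the 3′UTR did.

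**Figure D2:**
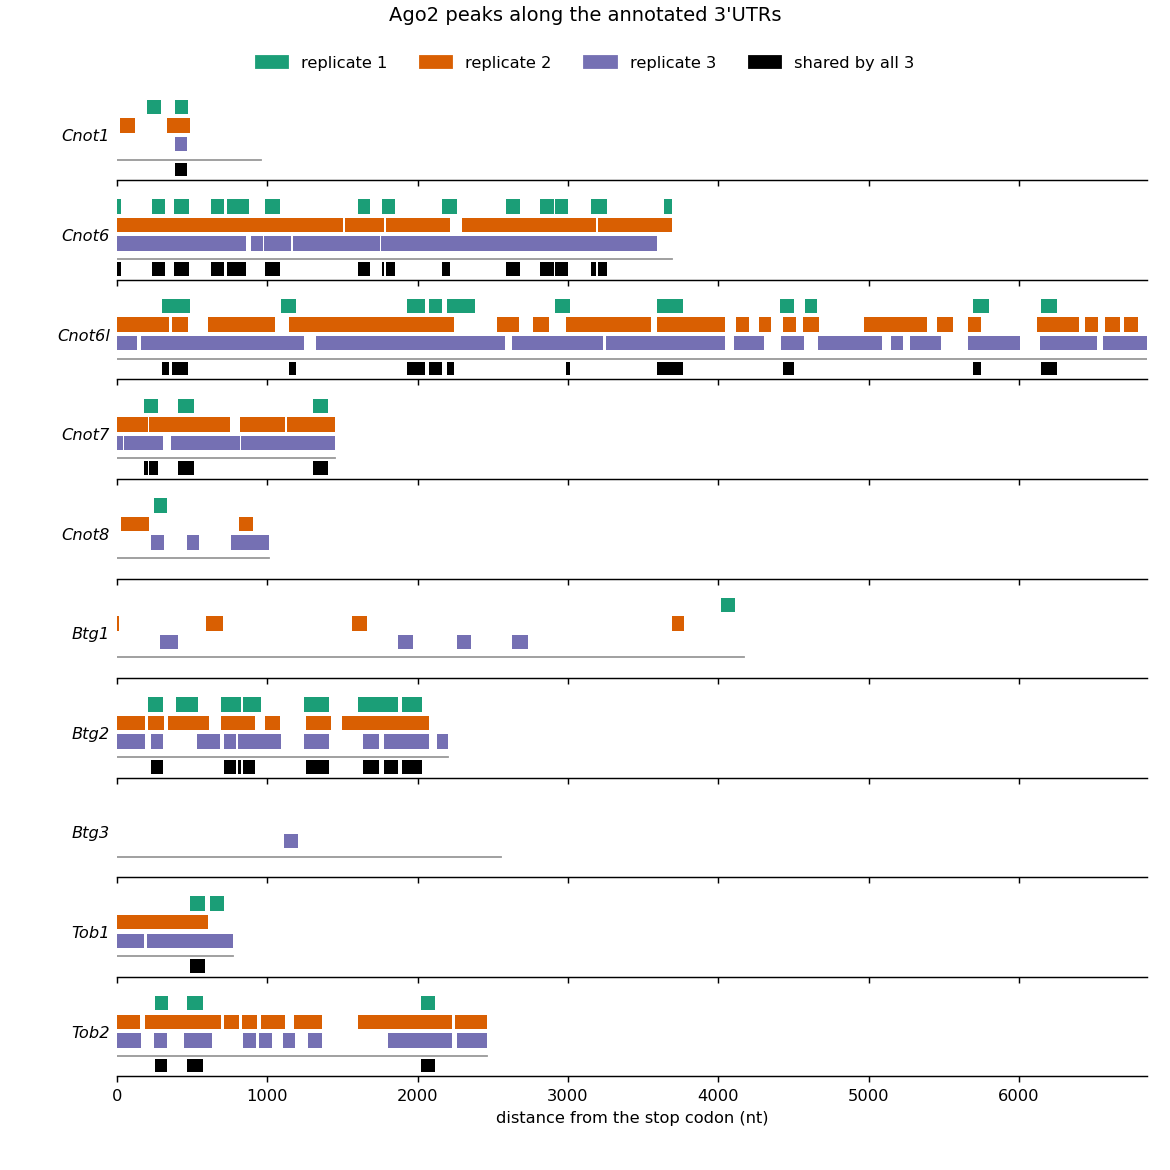
Ago2 peaks along the 3′UTR of each gene, with distance from the stop codon in nt on the x axis, 1 row of coloured bars per replicate (adjoining peaks run together) and shared regions in black. Bars of replicates 2 and 3 run almost without a break along Cnot6 and Cnot7, those of replicate 1 are separate, and Btg1 and Btg3 have no black bar.

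The CAF1‐type genes, close paralogs, differed in their Ago2 peaks. Cnot7 (3′UTR chr8:40492540-40493989, minus strand, 1450 nt) held 3, 18 and 15 peaks in replicates 1, 2 and 3. Cnot8 (chr11:58117586-58118594, plus strand, 1009 nt) held 1, 3 and 6. Cnot7 was the higher in each library after division by length, with 2.07, 12.4 and 10.3 peaks per kb against 0.991, 2.97 and 5.95.

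The mean difference of 4.97 per kb was little more than its SD of 4.21, and it was widest in replicate 2. Cnot7 had 4 shared regions covering 20% of its 3′UTR, all of which also held with peaks of 86 to 200 nt, and Cnot8 had none. After trimming by 30 nt on each side Cnot7 had 2. For Cnot7, replicates 2 and 3 together covered 89.2% of the 3′UTR, and 98.0% of the replicate 1 length lay under both. In Cnot8 they covered only 9.42%, and no replicate 1 nucleotide lay there. Without replicate 1 Cnot8 had 1 shared region, and without replicate 2 also 1.

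All 4 shared regions of Cnot7 lie opposite introns of Zdhhc2, a palmitoyltransferase gene on the other strand. No exon of Zdhhc2 overlapped them, and no opposite‐strand peak had its midpoint in the Cnot7 3′UTR in any library.

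Among the BTG genes the contrast was widest. Btg2, an immediate‐early gene induced by p53 and growth signals (3′UTR chr1:134075170-134077371, minus strand, 2202 nt), held 11, 16 and 16 peaks. Btg1 (chr10:96618641-96622809, plus strand, 4169 nt), whose 3′UTR is the longer, held 1, 3 and 4. Btg3 (chr16:78332637-78335193, minus strand, 2557 nt) held 0, 0 and 1, and no shared region was present in either of these.

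Btg2 exceeded Btg1 by 5.87 ± 0.972 and Btg3 by 6.38 ± 1.21 peaks per kb, in 3 of 3 libraries each. The groups of library values did not overlap, since Btg2 had 4.995, 7.27 and 7.27 per kb and the highest Btg1 value was 0.959. Its 8 shared regions covered 34.2% of the 3′UTR. This was the largest share of the 10 genes over all 3 libraries, but without replicate 1 it was 54.9%. That was below Cnot6 (92.7%), Cnot7 (89.2%), Tob1 (76.2%) and Cnot6l (62.2%). With peaks of 86 to 200 nt, 4 of its 8 regions were left. Relative to the mean of all 3′UTRs in the same library, Btg2 was 8.94 times as dense in replicate 1 and 4.09 and 4.11 times in replicates 2 and 3.

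In Btg2 the replicate 1 peaks lay under those of the others more often than the 3′UTR as a whole did. Both other libraries together covered 54.9% of its 3′UTR but 71.5% of the length under replicate 1 peaks. Btg1 and Btg3 had 0.459 ± 0.0734 and 0.0737 ± 0.128 times the library mean, so neither reached the average 3′UTR in any library. For Btg3, 695 nt of the 3′UTR overlap exons of Cxadr on the other strand.

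The TOB genes had similar densities. Tob1 (3′UTR chr11:94214726-94215495, plus strand, 770 nt) held 2, 6 and 5 peaks in replicates 1, 2 and 3, and Tob2 (chr15:81848272-81850731, minus strand, 2460 nt) held 3, 20 and 14. Per kb these were 2.60, 7.79 and 6.49 for Tob1 and 1.22, 8.13 and 5.69 for Tob2. The difference, 0.614 per kb in favour of Tob1, was smaller than its SD of 0.873, and Tob2 was the higher in replicate 2.

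Tob1 had 1 shared region of 96 nt, which was lost when only peaks with a score of 60 were used, and Tob2 had 3 of 75 to 104 nt. Without replicate 1, Tob2 had 9 and Tob1 had 2, and Tob1 also had 2 without replicate 2. In Tob2, replicates 2 and 3 together covered 53.9% of the 3′UTR but 96.1% of the replicate 1 length, the widest such gap of the 10 genes. In Tob1 the order was the other way, with 76.2% and 50.8%. In Cnot1 the values were 8.34% and 43.7%, from 2 replicate 1 peaks.

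In order of mean 3′UTR density, Cnot7 (8.28 ± 5.47 peaks per kb) and Cnot6 (7.49 ± 3.21) came first. They were followed by Btg2 (6.51 ± 1.31), Cnot6l (5.69 ± 3.17), Tob1 (5.63 ± 2.70) and Tob2 (5.01 ± 3.50). Cnot8 (3.30 ± 2.49), Cnot1 (2.09 ± 1.04), Btg1 (0.640 ± 0.366) and Btg3 (0.130 ± 0.226) came last. Of the 9 pairs of neighbours in this order, 7 differed by less than the SD of their paired difference. Only Cnot1 over Btg1 (1.45 ± 1.21) and Btg1 over Btg3 (0.509 ± 0.245) differed by more. In an exact two‐sided sign‐flip permutation test over the 3 libraries, the 6 pairs within the CCR4, CAF1, BTG and TOB groups gave p = 0.5 for Tob2 against Tob1 and p = 0.25, the smallest possible, for the others (0.5 and 0.3 after Benjamini-Hochberg adjustment over the 6). The order of the genes also depends on the scale. As a multiple of the library's mean, Cnot6 (5.77 ± 0.879) and Btg2 (5.71 ± 2.80) came before Cnot7 (5.51 ± 1.66). On that scale Tob1 (4.23 ± 0.506) came before Cnot6l (4.04 ± 0.353).

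**Figure D3:**
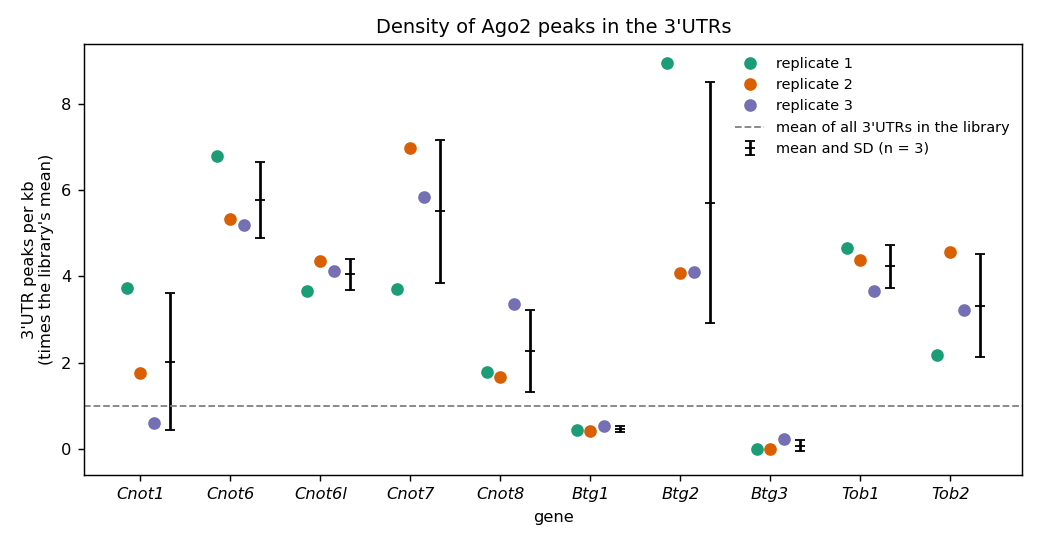
Peaks per kb of 3′UTR for each gene (x axis) as a multiple of the mean over all 3′UTRs of the same library (y axis, dashed line at 1), by replicate, with the mean and SD over 3 libraries. Cnot6, Cnot6l, Cnot7, Cnot8, Btg2, Tob1 and Tob2 lie above the line in every replicate, Cnot1 is below it in replicate 3, and Btg1 and Btg3 lie below it in every replicate.

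The median of the 10 genes was 5.32 peaks per kb and that of all genes 0.205. The median shared percentage of the 3′UTR was 11.8% against 0% over all genes. Within their own length classes, 9 of the 10 genes were above the median density, with Cnot7 at percentile 99.9, Btg2 at 98.3 and Btg3, the exception, at 27.1.

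In coding sequence, 6 of the 10 genes had a peak in every library, where 18.7% of all genes did, and 6 had a shared region, where 9.77% did. These were not the same 6. Cnot7 had a peak in each library but no shared region, and Btg1 had a shared region although its replicate 1 peak had its midpoint outside the coding sequence. The 24 shared coding regions were 12 to 118 nt long. With peaks of 86 to 200 nt only, 8 regions in Cnot1, Cnot6 and Tob1 were left.

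Cnot1 accounted for 13 of the 24, and 0.0641% of all genes had as many or more. Over all genes 1.17% had 4 or more, as did Cnot1 and Cnot6. With peaks of 86 to 200 nt, 4 of the 13 were left in Cnot1. Its 7128 nt coding sequence held 9, 48 and 43 peaks in replicates 1, 2 and 3. The 13 regions were spread from nt 131 to nt 6666 of the joined coding sequence and lay in 13 different coding exons, and the longest, 108 nt, was at chr8:95764457-95764564. Of genes in its class of coding length, the longest of 5, 20.5% had a shared coding region and 3.98% had 4 or more.

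The CCR4‐type genes again carried peaks in the coding sequence. Cnot6 held 5, 11 and 13 peaks and 4 shared regions, and Cnot6l held 2, 10 and 15 and 3 shared regions. The last shared coding region of Cnot6 lay next to the stop codon, at nt 1614 to 1656 of 1671, just before the first shared 3′UTR region. Of the Cnot6l regions, 2 rested on a peak over 1000 nt wide and were absent without such peaks.

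In the remaining genes replicate 1 gave at most 2 coding peaks each. Tob1 held 1, 11 and 13 peaks with 2 shared regions, at nt 121 to 184 and 205 to 222. Btg2 held 2, 5 and 3 with 1 region of 118 nt, and Btg1 held 0, 4 and 2 with 1 region of 66 nt. Cnot7 held 1, 5 and 9, Cnot8 held 0, 3 and 3, and Tob2 held 0, 8 and 6, all without a shared region. Btg3 had no coding peak in any library, on either strand.

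**Figure D4:**
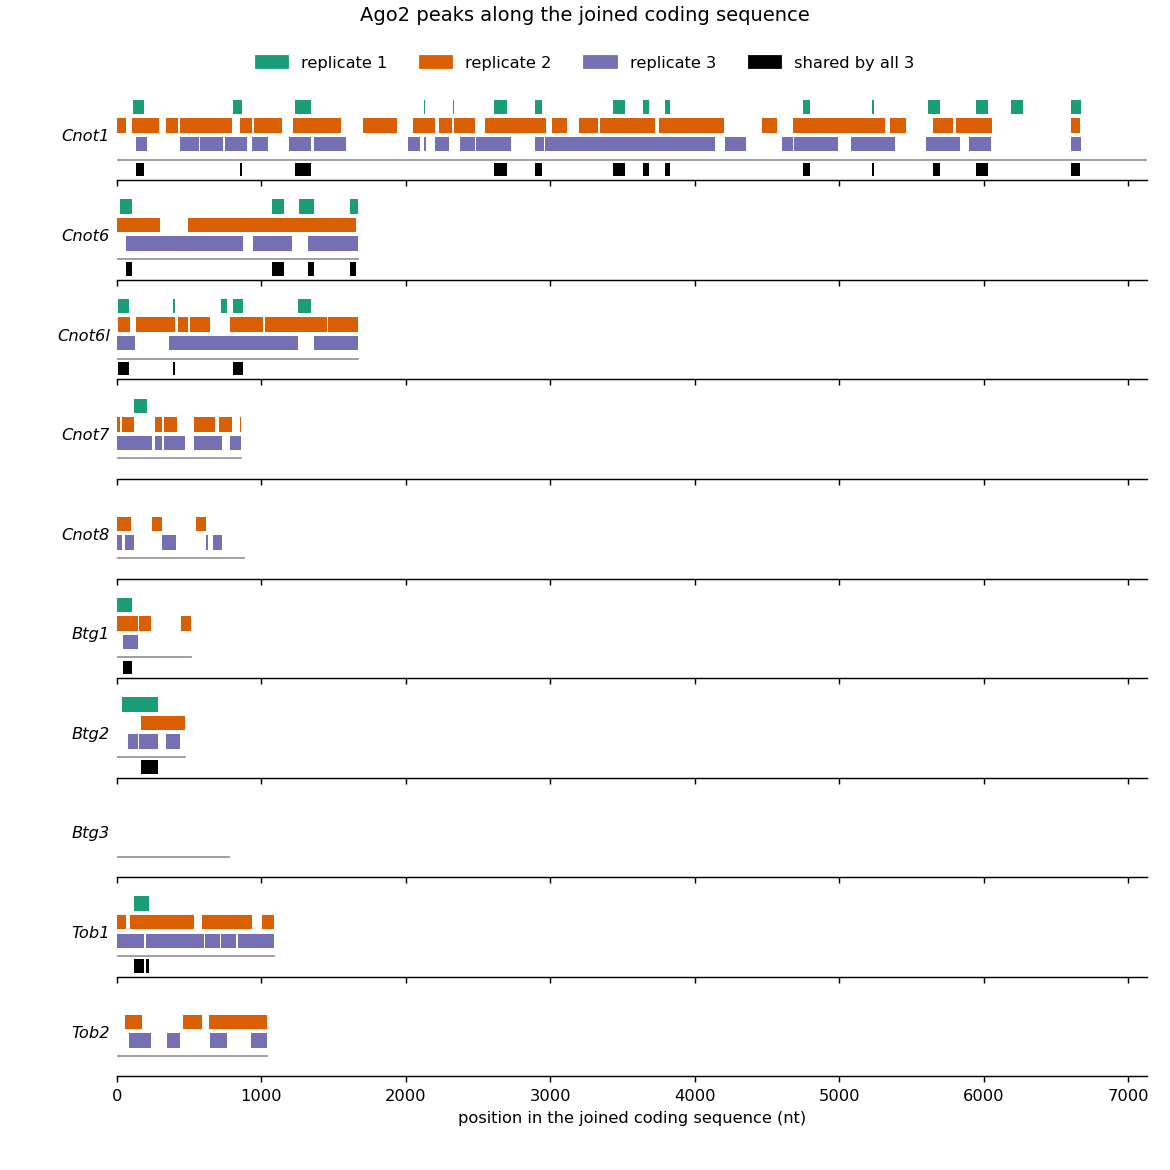
Ago2 peaks along the joined coding sequence of each gene, in nt from the start codon on the x axis, 1 row of bars per replicate and shared regions in black. Cnot1 has 13 black bars along nearly its whole length, Tob1 has its 2 near the start, and Btg3 has no peak.

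Some shared regions have near‐identical copies elsewhere in the genome, found at 90% identity or more over at least 50% of their length. Of the coding regions long enough to be searched (25 nt or more), 6 of 20 had a copy, 5 of them in Cnot1 and 1 in Cnot6. Of the 3′UTR regions, 1 of 41 did, the 26 nt region of Cnot6l. Whether reads of these copies were counted in the genes was not tested.

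Introns held many peaks of the 10 genes but, for their length, few shared positions. In replicates 1, 2 and 3 they had 146, 140 and 607 same‐strand peaks against 41, 23 and 39 on the opposite strand. A peak in every library was present in 7 of the 10, where 56.8% of all genes with an intron had one, and a shared region in 4, where 15.2% did. These 4 were the genes with the largest numbers of intron peaks in replicate 2. Cnot1 (46, 46 and 130 peaks) had 16 shared regions, Cnot6 (20, 13 and 57) had 2, Cnot6l (48, 54 and 308) had 6 and Cnot7 (17, 15 and 53) had 4.

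Many of these intron regions were tied to other features. Of the 28, 14 rested on a peak over 1000 nt wide, 9 of them in Cnot1. A further property was that 7 directly adjoined a shared coding region, as continuations of 20 to 57 nt across an exon border. With peaks of 86 to 200 nt, 4 of the 28 remained, of which the longest were 104 and 90 nt in Cnot6l. In Cnot1, regions of 157 and 128 nt at chr8:95746162-95746318 and chr8:95746033-95746160 overlapped Gm26493, a snoRNA gene on the same strand (chr8:95746060-95746195) that itself held 3, 1 and 2 peaks.

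The introns of the other genes had no region shared by all 3 libraries. Without replicate 2, or with at least 2 of the 3 libraries, 8 of the 10 genes had a shared intron region in place of 4. Btg3, with 12, 6 and 37 intron peaks in 40542 nt, had no shared intron region, and neither did Cnot8 with 1, 5 and 15. Btg1, Btg2, Tob1 and Tob2, whose introns are short, had at most 4 intron peaks in any library.

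The seed of 74 miRNAs, those of 84 listed that matched the RefSeq table, was searched in the 3′UTRs on the transcript strand. Over the 43 shared regions there were 25 matches to seed bases 2 to 8, or 7.20 per kb, and 8.52 per kb in the remainder of these 3′UTRs. Over all genes with a shared region the values were 7.46 per kb inside and 6.98 outside. The number of matches depended on the setting, with 101 without replicate 1, 10 with peaks of 86 to 200 nt and 6 after trimming by 30 nt, and densities were not computed for these. The shared regions were richer in A and T, 64.6% against 60.7% in the rest, as they were over all genes (64.2% and 57.5%).

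Btg2 differed in direction from the other genes. It had 9 of the 25 matches, 11.95 per kb in its shared regions and 7.59 per kb in the rest of its 3′UTR. Cnot6 had 8 matches, 7.33 per kb inside against 10.4 outside, and Cnot6l had 5, 5.63 against 8.89. Cnot7 had 2, Tob2 had 1, and Cnot1 and Tob1 had none. The counts are small, and no test of these densities was made.

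The miR-15a-5p seed, which miR-16, miR-195a, miR-322 and miR-497a share, had the most matches within shared regions. It matched in 3 of the 43 shared regions (6.98%), where 1.47% of the 7841 shared 3′UTR regions of all genes held it. Of these, 2 were in Btg2, 742 and 876 nt after the stop codon, and 1 in Tob2 at 321 nt. The Btg2 match at 876 nt was an 8mer in an 84 nt region. The match itself was under peaks of all 3 libraries when only peaks of 86 to 200 nt were used, and likewise when 30 nt had been trimmed from either end of each peak. With a score of 60 it was under peaks of 2. The match at 742 nt was under peaks of 86 to 200 nt in 2 libraries. The Tob2 match was under such peaks in 1 library, and after trimming also in 1. In Btg2 a match to miR-103-3p began at 875 nt, 1 nt before the 8mer, and shares its letters. Peaks on the mature arms of miR-15a, miR-195a, miR-322 and miR-497a were present in all 3 libraries. Cnot1, Cnot6l, Cnot8 and Btg1 had miR-15a-5p matches only outside shared regions.

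Other seeds recurred in a pair of genes or in one gene 2 times. The miR-26a-5p seed matched in shared regions of Cnot6l, 6165 nt after the stop, and of Cnot7 at 262 nt, and miR-26b had a peak on its arm in every library. The miR-9-3p seed matched in Cnot6 at 2900 nt, as an 8mer, and in Btg2 at 1983 nt, and the miR-141-3p seed in Cnot6 at 2670 nt and Btg2 at 272 nt. The arm of miR-141-3p had a peak in replicates 2 and 3. Of the 3 loci of miR-9-3p, 1 had a peak, in replicate 1. The arms of miR-16, miR-26a, miR-24 and miR-181a, which are also encoded at more than 1 locus, had none in any library. Whether this depends on the number of loci was not tested, and a missing peak was not taken to mean that a miRNA was absent. The miR-181a-5p seed matched 2 times in Cnot6l, at 341 nt and, as an 8mer in the 176 nt region, at 3686 nt. The miR-495-3p seed matched 2 times in 1 region of Cnot6, at overlapping positions of 1807 and 1811 nt. The seeds of miR-26a-5p, miR-9-3p, miR-141-3p and miR-181a-5p were each in 2 of the 43 regions (4.65%). Over all 7841 shared regions these 4 seeds were in 0.957%, 1.03%, 1.19% and 1.48%. The miR-495-3p seed was in 1 of the 43 (2.33%) and in 2.13% of all. No test of these shares was made.

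Of the seeds with a single match, Cnot6 held those of miR-19a-3p, an 8mer at 312 nt, and miR-142a-5p, Cnot6l held that of miR-144-3p, and Btg2 held those of miR-103-3p, miR-132-3p and miR-199a-5p. A further 5 seeds are named because their values were seen. They were miR-24-3p in Cnot6, miR-543-3p in Cnot6l over the letters of miR-181a-5p, miR-200b-3p in Cnot7, and miR-25-3p and miR-29a-3p in Btg2. Each seed with a single match was in 1 of the 43 regions (2.33%). Of all shared regions, from 0.446% (miR-24-3p) to 1.77% (miR-142a-5p) held such a seed. In all, 6 of the 25 matches were 8mers, 3 of them in Cnot6 (miR-9-3p, miR-19a-3p and miR-24-3p), 2 in Btg2 (miR-15a-5p and miR-25-3p) and 1 in Cnot6l (miR-181a-5p).

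**Figure D5:**
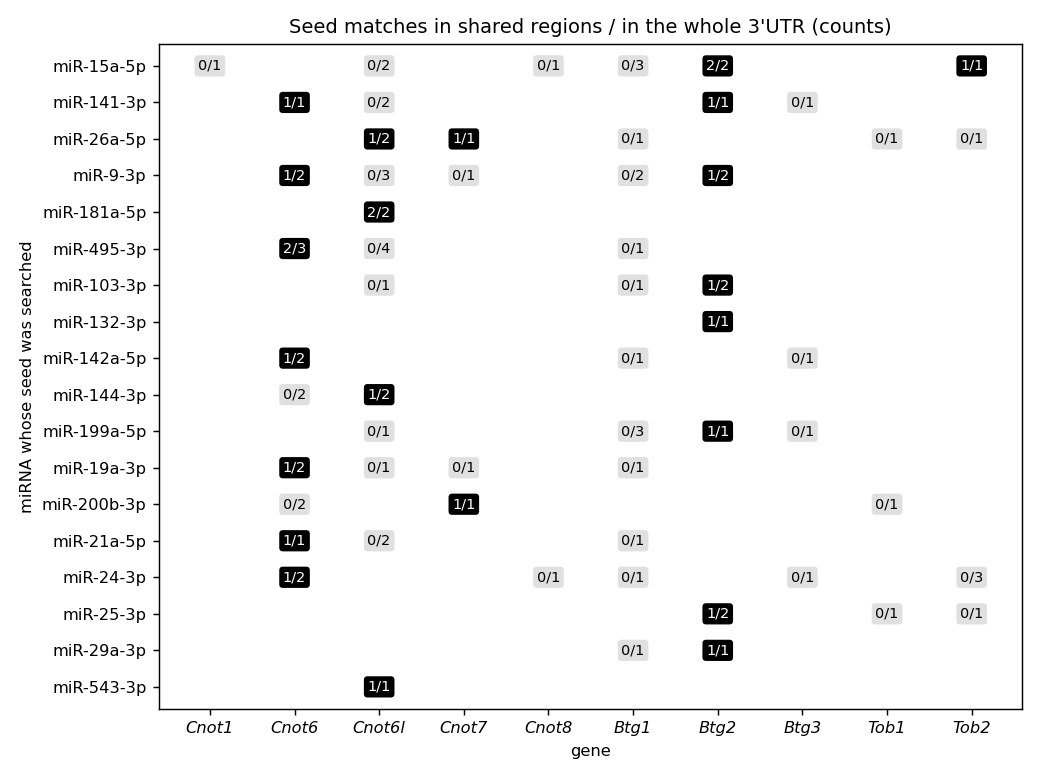
Number of seed matches in shared regions over the number in the whole 3′UTR, for each gene (x axis) and each of the 18 seeds with a match in a shared region (y axis). Black cells have a match in a shared region and grey cells only elsewhere, and Btg2 and Cnot6 have the most black cells.

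miR-21a-5p, the miRNA at the centre of the study, had 4 seed matches in 3 of the 10 genes. Its match in Cnot6, 773 nt after the stop codon, lay in a 129 nt shared region at chr11:49674338-49674466 that was also covered in all 3 libraries by peaks of 86 to 200 nt. It was under a peak in 2 libraries when peaks were trimmed by 30 nt on each side, and in 2 with a score of 60. In Cnot6l the matches at 2970 and 5007 nt, the latter an 8mer, were each under peaks of 2 libraries. The match in Btg1 at 3631 nt was under none, and Btg2 and the other genes had no match. Over all genes 0.727% of shared regions held this seed, and miR-21a had a peak on its mature arm in every library.

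Of sites of RNA‐binding proteins that recruit CCR4‐NOT, 2 motifs were searched, and neither count stands apart from the share over all genes. The Pumilio element TGTANATA, searched on the transcript strand, was in 1 of the 43 regions (Cnot6l), where 4.005% of all shared regions held it. The AU‐rich core TATTTAT was also in 1 (Cnot6l), where 3.29% of all held it.

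Among 46 other genes of deadenylation, decay and their recruiters, 32 had a 3′UTR peak in every library, where 21.7% of all genes did. A shared 3′UTR region was present in 27 (58.7%), where 13.9% of all genes had one, and the median shared percentage was 2.72%. Their median 3′UTR length was 1762 nt against 921 nt over all genes, and that of the 15 recruiters was 2848 nt. Long 3′UTRs more often had a shared region, and these counts were not adjusted for length. By role, a shared region was present in 3 of 7 other CCR4‐NOT subunits, 2 of 7 other deadenylases, 7 of 12 decapping and decay genes, 3 of 5 genes of poly(A)‐binding proteins and their partners, and 12 of 15 recruiters. The 6 with the greatest shared lengths included Tnrc6b (1217 nt) and Tnrc6a (713 nt), which link Ago2 to CCR4‐NOT. The cytoplasmic polyadenylation element binders Cpeb4 (1130 nt) and Cpeb2 (855 nt), the decapping enzyme gene Dcp2 (771 nt) and the Pumilio gene Pum2 (706 nt) were the others. Cnot6, with 1091 nt, and Cnot6l, with 888 nt, lay within that range, as did Btg2 with 753 nt.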

How the data were processed

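Ago2 HITS‐clip was performed on 3 samples of N2A cells, grouped as the labels number them. Per the submitters' processing notes, FastQC, cutadapt and STAR were used with mm10, which is GRCm38; the peak caller and its threshold are not given in the sources used here. The authors called peaks per sample and deposited 1 table of intervals with strand and a score, whose unit is not stated and which was used only to keep peaks at 60. The table had 0 other columns of values per sample.

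Features came from GENCODE M21, the 3′UTR of a gene being the longest among its coding transcripts, and introns being intronic in every transcript. Peaks were placed by midpoint on the same strand. A shared region was at least 8 nt covered in all 3 libraries by any part of a peak. Seed matches were to bases 2 to 8. A mature arm had a peak when at least 15 nt overlapped. Copies were searched with blastn 2.17.0. Counting ran in Python (3.11.15) with pysam 0.24.0, pandas 2.3.3 and numpy 2.4.6, and was checked on simulated peaks. The only test was an exact two-sided sign-flip permutation over the libraries for 6 pairs of paralogs.

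All 10 genes were described. Of the other pathway genes, the 6 with the greatest shared 3′UTR length were named, and of the seeds up to 12 by number of genes, with miR-21a-5p. Members and lists were chosen with earlier results of these data known. Alternatives varied the libraries, strand, peak width, edges, score, assignment, overlap, 3′UTR model and site type.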

Additional observations from a re-analysis of the deposited data

Results flagged for a closer look

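Peaks in the 5′UTRs of the 10 genes, outside the main comparisons, numbered 38 over the 3 libraries, against 2 on the opposite strand. They were 8, 15 and 15 in replicates 1, 2 and 3, against 1, 0 and 1, and are listed because they lie in data the comparisons did not use. They formed shared regions in Cnot7 (2), Btg1 (1) and Tob1 (1), the longest of 73 nt in Btg1. The share of all genes with a shared 5′UTR region was not computed, so whether this count is usual is not known. The Tob1 region of 28 nt has 2 near‐identical copies on chromosome 16.

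Within 2000 nt past the annotated ends of the 10 genes there were 13 same‐strand peaks over the 3 libraries, 8, 2 and 3 in replicates 1, 2 and 3. The opposite strand held 7, as 2, 2 and 3, so the same strand exceeded it in replicate 1 only. Cnot6 had 3, 1 and 2 of them, and no shared region was present.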

How the results depend on the processing

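Of the 90 values of the main results under alternatives, 68 moved by at most 1.5 times or by less than the SD. With strand reversed, 0 genes had a peak in every library or a shared region in 3′UTR, coding sequence or (shared only) intron, 0 shared 3′UTR regions and 0 seed matches remained, and 3′UTR density was 0.102 per kb. With peaks of 86 to 200 nt there were 22 shared 3′UTR regions, 3 genes with a shared coding region, 10 seed matches and a strand ratio of 45.02. Trimming by 30 nt left 2 genes with a shared intron region and 6 seed matches. It was not run for results by midpoint, which it cannot change. With a score of 60 there were 14 seed matches. With at least 2 of the 3 libraries 8 genes had a shared intron region and 116 seed matches were counted. There were 6 matches as 8mers only and 100 as 6mers or longer.

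Leaving out each replicate gave 9 genes with a 3′UTR peak in every library, 7 to 8 with a shared 3′UTR region and 41 to 66 such regions, the highest without replicate 1. It gave 6 to 9 genes with coding peaks, 6 to 9 with shared coding regions and 5 to 8 with shared intron regions, the highest without replicate 2. Densities were 3.77 to 5.80 per kb, strand ratios 10.3 to 17.8, and seed matches 28 to 101, the highest without replicate 1. Fewer libraries leave more length shared by construction, and other causes were not tested. Leaving out peaks over 1000 nt was added after the data were seen and moved none of the main results by that much. No paired analysis between groups of samples was possible because all samples form 1 group. Genes were compared with each other within libraries.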
